A study of Oryza sativa with 4 samples.

Results

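Calmodulin-like proteins (CML) and calcium-dependent protein kinases (CPK, also written CDPK) are 2 families of rice proteins that bind calcium, and their transcripts were followed here in the young panicles of 2 Indica rice cultivars. A gene was a member when its symbol or a synonym in the reference gene table was CML, CPK or CDPK with a number. The table holds 50 such genes, 26 CML and 24 CPK. Of these, 43 (23 CML and 20 CPK) had a probe set that the array annotation gives to that gene alone, out of 17905 genes with such a probe set in the whole series. Where a gene had several probe sets, the one with the highest mean signal over the 4 arrays stood for it. No probe set was used here for CML2, CML21, CML22, CPK11, CPK14, CPK25 and CPK28. Some numbers are used for more than 1 gene in the synonyms (CDPK1 stands beside CPK4, CPK7 and CPK23), so kinases are called here by their CPK number and by gene identifier where they are described.

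The groups were Pusa 1266 (2 arrays) and Pusa Basmati 1 (2 arrays), each array from a biological replicate of panicle primordia at stage 0 on the submitters' scale. No allele, transgene or treatment is labelled in either cultivar, and no source used here gives the number of plants behind an array. The characteristic labels give Pusa 1266 a high and Pusa Basmati 1 a low grain number per panicle, whereas the titles write low for both, so the groups are named by cultivar. Each value is the linear signal of 1 probe set on 1 Affymetrix array hybridized with biotin-labelled cRNA. The comparison between the cultivars asks which of these genes differ at the start of panicle formation.

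Calcium ions act as a messenger inside plant cells. Their concentration in the cytosol rises within moments of touch, cold, drought, salt, attack by microbes and many hormone signals, and proteins with EF-hand loops bind the ions and change shape. Calmodulin-like proteins carry EF-hands and no enzyme domain, so they act through the proteins they bind, and are called sensor relays. Calcium-dependent protein kinases join EF-hands and a kinase domain in 1 chain, so the protein that senses calcium also phosphorylates the targets, among them NADPH oxidases, ion channels and transcription factors. Families of both kinds are large in plants, and their members differ in tissue and in the stimulus that induces them.

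The arrays were not on 1 level as deposited. Trimmed mean signals were 78.4 and 89.4 on the Pusa 1266 arrays against 138 and 155 on those of Pusa Basmati 1, so a signal of equal rank is a smaller number in Pusa 1266. Differences are therefore given as Pusa 1266 minus Pusa Basmati 1 on the scale of log2(signal + 16) after quantile normalization, fitted over all 30029 probe sets above the filter, with Benjamini-Hochberg adjustment in limma and a threshold of 0.05. The median over all 15180 tested genes was 0.07 on this scale, and −0.62 when the deposited signals were left unscaled. Of all tested probe sets 53.4% were called, 28.2% higher in Pusa 1266 and 25.2% lower. GAPDH had a 3' to 5' signal ratio, which rises as RNA degrades, of 20.3 and 18.5 on the Pusa 1266 arrays against 7.55 and 8.50 on the other pair. All 5 controls had higher ratios on both Pusa 1266 arrays, with mean ratios 3.25 and 1.85 times those of Pusa Basmati 1 for the actin probe sets, 2.42 times for GAPDH, 1.42 times for ubiquitin and 1.24 times for cyclophilin. Of the panicle marker list 7 of 8 genes with a probe set were tested, of which 5 rose and 1 fell (2 and 3 as deposited), and FZP, which acts as spikelets form, had signals of 5.5 or less. The list summed to signals of 7826 and 8560 in Pusa 1266 against 8044 and 8779 in Pusa Basmati 1. Within the list RFL rose by 2.62 (1.88 as deposited) and LAX1 by 1.57 (0.77), both called on either scale. MADS34, the 1 that fell, stood at −0.83. Of 6 tested photosynthesis genes 5 fell in Pusa 1266, and their summed signal over 7 probe sets was 1279 and 1246 against 4826 and 5614, with RBCS1 at 3.3 or less. Of 8 genes of later floral organs 3 were called higher after quantile normalization and the others did not pass, whereas as deposited all 8 values lay below 0 and 6 were called lower. The summed signal was 2805 and 3203 against 4507 and 5071, with MADS13 at 15.2 or less. The RNA ratio, the leaf genes and panicle markers such as RFL and LAX1 moved with cultivar, and their part in the differences below was not tested.

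Of the 43 genes 37 passed the filter on dim probe sets, which asked for a signal above the array median on at least 2 arrays. In Pusa 1266 17 of the 37 fell and 4 rose, and 16 did not pass the test. Of the 17, CML24 passed the filter only through the Pusa Basmati 1 arrays and so could only come out lower. The share called in either direction, 56.8%, was near that of all tested genes (61.0%). By direction the shares were 45.9% lower, where all genes gave 26.3%, and 10.8% higher, where all genes gave 34.7%. As deposited, where most genes lie lower in Pusa 1266, the members' share lower was 67.6% and that of all genes 66.7%, so the gap in lower calls depended on the scaling. With the trimmed mean these shares were 40.5% and 27.1%, and with median centring 64.9% and 51.7%. At 2-fold or more 8 genes (21.6%) were lower, against 7.34% of all genes, and 1 (2.70%) was higher, against 5.53%. The cultivars did not overlap on the normalized scale in 31 of the 37 (83.8%), close to the 81.9% of all genes. These shares describe the members and carry no test of the list. In tissue of many cells, fewer cells of a kind and less RNA per cell cannot be told apart.

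Among the calcium sensors without an enzyme domain, 4 genes were lower in Pusa 1266 by 2-fold or more and 1 was higher. CML27 (LOC4332731, chromosome 3) had signals of 38.3 and 46.6 in Pusa 1266 and of 1363 and 1461 in Pusa Basmati 1. Both Pusa 1266 arrays were far below both Pusa Basmati 1 arrays. The gene fell 14.9-fold after normalization, a log2 difference of −3.90 ± 0.08 (SE, n = 2 per cultivar, adjusted p = 2.85e-08), and only 46 of the 15180 tested genes had a lower value. Each SE given here is the moderated one of limma, which draws on variance shared across probe sets and not on the arrays of that gene alone. With a constant of 1 the log2 difference was −4.22, and with 64 it was −3.23. A further probe set of CML27 was dim, with signals of 10.9 and 8.8 against 40.3 and 22.9. It lay on the same side, at −0.48, and did not pass (adjusted p = 0.0967).

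CML31 (LOC4325408, chromosome 1) had signals of 131 and 153 in Pusa 1266 and of 1373 and 1581 in Pusa Basmati 1. The arrays of each cultivar lay close together, and the groups were well apart. The gene fell 5.45-fold, with a log2 difference of −2.45 ± 0.06 (adjusted p = 7.55e-08). CML14 (LOC4339701, chromosome 5) had signals of 16.9 and 20.5 against 135 and 169, which puts the Pusa 1266 arrays just above the added constant of 16. Its log2 difference of −1.63 ± 0.13 (adjusted p = 2.28e-05) was therefore −2.11 with a constant of 1 and −0.98 with a constant of 64. CML15 (LOC4338633, chromosome 5) was bright on all arrays, with 939 and 1040 in Pusa 1266 against 2905 and 3384 in Pusa Basmati 1. It fell 2.05-fold, just past the 2-fold line, with a log2 difference of −1.03 ± 0.05 (adjusted p = 1.25e-06), and stood at −0.85 when the linear signals were scaled to 1 common trimmed mean.

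The gene that was higher by 2-fold or more was CML3 (LOC4351420, chromosome 12). In rice the CML3 protein is known to bind an HMGB1 protein of chromatin. Its signals were 44.0 and 40.7 in Pusa 1266 against 18.9 and 19.0 in Pusa Basmati 1, dim in both but higher in both Pusa 1266 arrays even before any scaling. The gene rose by 1.26 ± 0.16 on the log2 scale (adjusted p = 0.000292), and by 0.74 with the deposited scaling, where it also passed. The constant added before logs set much of its size, which was 1.89 with a constant of 1 and 0.64 with 64. CML30 (LOC4340272, chromosome 6) rose by 0.96 ± 0.08 (adjusted p = 3.47e-05), just under 2-fold. Its deposited signals, 266 and 301 against 231 and 285, overlapped between the cultivars, and the log2 difference with the deposited scaling was 0.13 and did not pass (adjusted p = 0.522). That is 0.75 above the median of all genes on that scale.

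**Figure D1:**
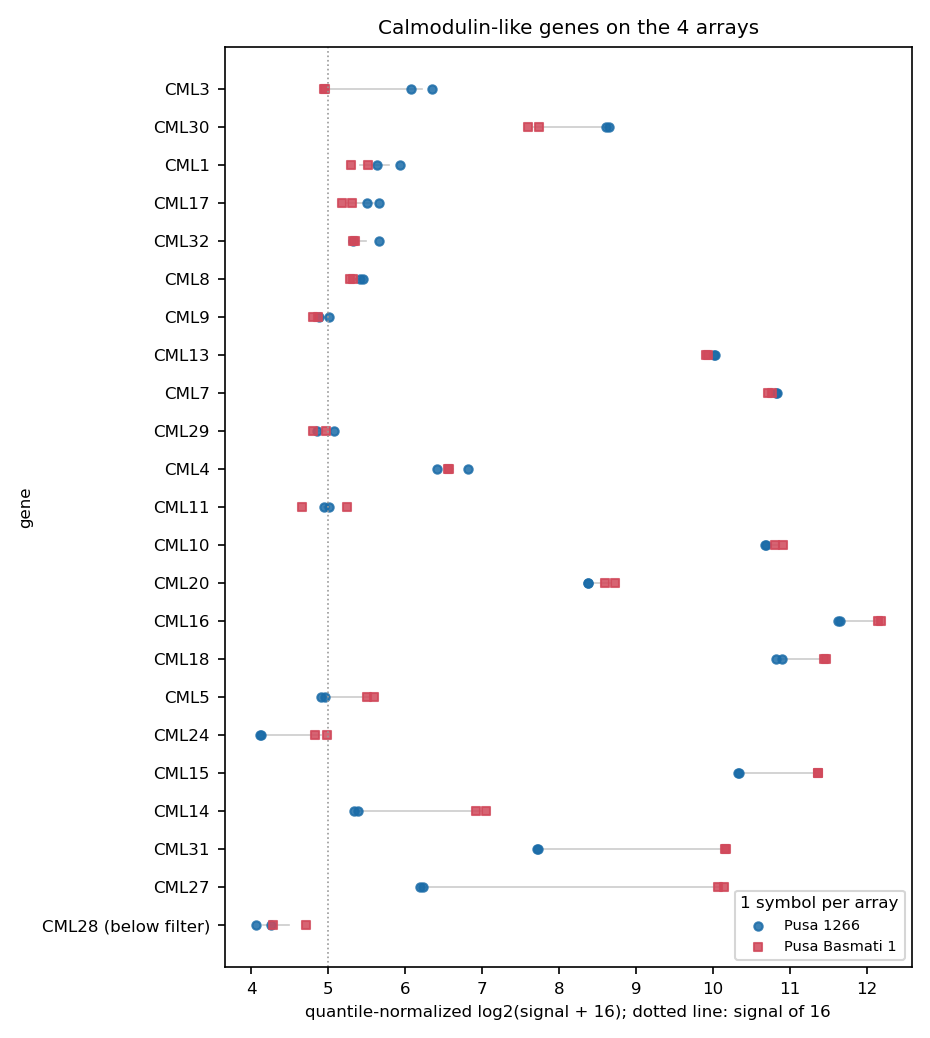
Quantile-normalized log2(signal + 16) of the 23 calmodulin-like genes with a probe set, 1 symbol per array (circles, Pusa 1266; squares, Pusa Basmati 1; grey lines join the cultivar means). CML27 and CML31 have the widest gaps, CML3 and CML30 lie higher in Pusa 1266, and CML28 is below the filter.

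Smaller differences made up the rest of the sensor calls. The probe set of CML16 (LOC4325693, chromosome 1) was the brightest of the sensors, with 2567 and 2886 in Pusa 1266 against 4594 and 5480 in Pusa Basmati 1. It fell by 0.53 ± 0.04 on the log2 scale. The call was lost only with scaling to 1 trimmed mean, at −0.08 (adjusted p = 0.282), and was kept in the other 14 alternatives, among them the deposited scaling at −0.88. CML18 (LOC9266860, chromosome 5), the next brightest, had 1344 and 1592 against 3098 and 3546 and fell by 0.60 ± 0.05, or by 0.37 with the trimmed mean. CML20 fell by 0.28 ± 0.07 (signals of 218 and 251 against 513 and 530), a call kept in 13 of the 15 alternatives. Without Pusa Basmati 1 replicate 1, a setting where it did not pass, it stood at −0.23. CML10 passed narrowly, at −0.18 ± 0.05 (adjusted p = 0.0248), with signals of 1219 and 1347 against 2098 and 2586. It lost the call with the trimmed mean (−0.056, adjusted p = 0.498), with no filter (adjusted p = 0.0851) and without the eBayes trend (adjusted p = 0.153). The call was also lost without Pusa 1266 replicate 1, Pusa 1266 replicate 2 or Pusa Basmati 1 replicate 2, at −0.18, −0.17 and −0.13.

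A pair of dim sensors fell as well, and in these the size is not fixed by the data. CML24 (LOC4344304, chromosome 7) had signals of 1.1 and 1.1 in Pusa 1266 and of 15.4 and 20.1 in Pusa Basmati 1, so it passed the filter through the Pusa Basmati 1 arrays alone. Its value of −0.78 ± 0.18 became −2.61 with a constant of 1 and −0.26 with 64, and without Pusa Basmati 1 replicate 2 it was −0.66 and did not pass (adjusted p = 0.0709). CML5 (LOC4352729, chromosome 12) had signals of 10.8 and 11.4 against 40.6 and 40.6, and stood at −0.62 ± 0.16. A further probe set of CML5 also passed, at −0.71, with 4.1 and 10.9 against 33.2 and 32.3. Without either Pusa Basmati 1 replicate CML5 did not pass, at −0.55 and −0.61. With no filter on dim probe sets CML5 did not pass either (adjusted p = 0.0766).

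The 10 sensor genes that did not pass the test, CML1, CML4, CML7, CML8, CML9, CML11, CML13, CML17, CML29 and CML32, had log2 differences between 0.03 and 0.38. CML1, known in rice as CaM61, a calmodulin-like protein with a lipid-modified tail, had signals of 30.4 and 26.7 against 37.7 and 31.3, and stood at 0.38 ± 0.17 (adjusted p = 0.0955). CML7 and CML13 were bright and lay close together in the cultivars after normalization, at 0.09 ± 0.05 and 0.10 ± 0.05. The call of CML7 turned with the scaling. It was called higher with the trimmed mean (0.21) and lower as deposited (−0.59) and with median centring (−0.35). CML4, which raises drought tolerance when overexpressed in rice, had signals of 46.7 and 75.8 against 101 and 112 and stood at 0.05 ± 0.15. A further probe set of CML4 passed at −0.86 ± 0.20 (22.5 and 28.8 against 73.9 and 141), so the probe sets of this gene did not give the same call. CML28 was below the filter, with signals of 0.5, 2.6, 4.2 and 12.5. Over the 22 tested sensors 2 (9.09%) rose and 10 (45.5%) fell, where all genes gave 34.7% and 26.3%. The median log2 difference of the sensors was 0.04. The sign of that median was not stable: it was −0.67 as deposited, −0.43 with median centring, −0.53 with a filter at the 75th percentile, and −0.08 without Pusa 1266 replicate 2 or without Pusa Basmati 1 replicate 1.

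Among the kinases 4 genes were lower in Pusa 1266 by 2-fold or more and all other tested kinases differed by less. CPK4 (LOC4328155, chromosome 2), which raises tolerance of salt and drought when overexpressed in rice, had signals of 110 and 166 in Pusa 1266 and of 1095 and 1261 in Pusa Basmati 1. The groups lay far apart, although the Pusa 1266 replicates differed more than those of the other strongly lower kinases did. The gene fell 4.54-fold, with a log2 difference of −2.18 ± 0.11 (SE, n = 2 per cultivar, adjusted p = 1.82e-06). CPK18, which in rice phosphorylates the MAP kinase MPK5 and restrains defence, fell only by 0.38 ± 0.07, with 277 and 285 against 621 and 689. A dim probe set of CPK18, with signals of 16.1 to 34.1, stood at 0.01 and did not pass.

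CPK13 (LOC4336783, chromosome 4), known under an older name for cold, salt and drought tolerance when overexpressed, had the brightest probe set of the kinases. Its signals were 588 and 655 in Pusa 1266 against 3016 and 3570 in Pusa Basmati 1, with no overlap. It fell 3.35-fold, with a log2 difference of −1.75 ± 0.05 (adjusted p = 1.21e-07). A further probe set of CPK13 gave 27.4 and 31.7 against 302 and 309, and fell by 2.10 ± 0.11, so both probe sets of this gene were called in the same direction. CPK5 (LOC4330351, chromosome 2), which acts with CPK13 on NADPH oxidases when rice roots lack oxygen, had signals of 202 and 234 against 1221 and 1404. It fell 3.30-fold, with a log2 difference of −1.72 ± 0.06 (adjusted p = 3.45e-07). Its probe set has the suffix of those that match several transcripts, and the gene has no other. CPK20 (LOC4343644, chromosome 7) had 273 and 261 against 1149 and 1316 and fell 2.55-fold, with a log2 difference of −1.35 ± 0.09 (adjusted p = 7.96e-06).

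**Figure D2:**
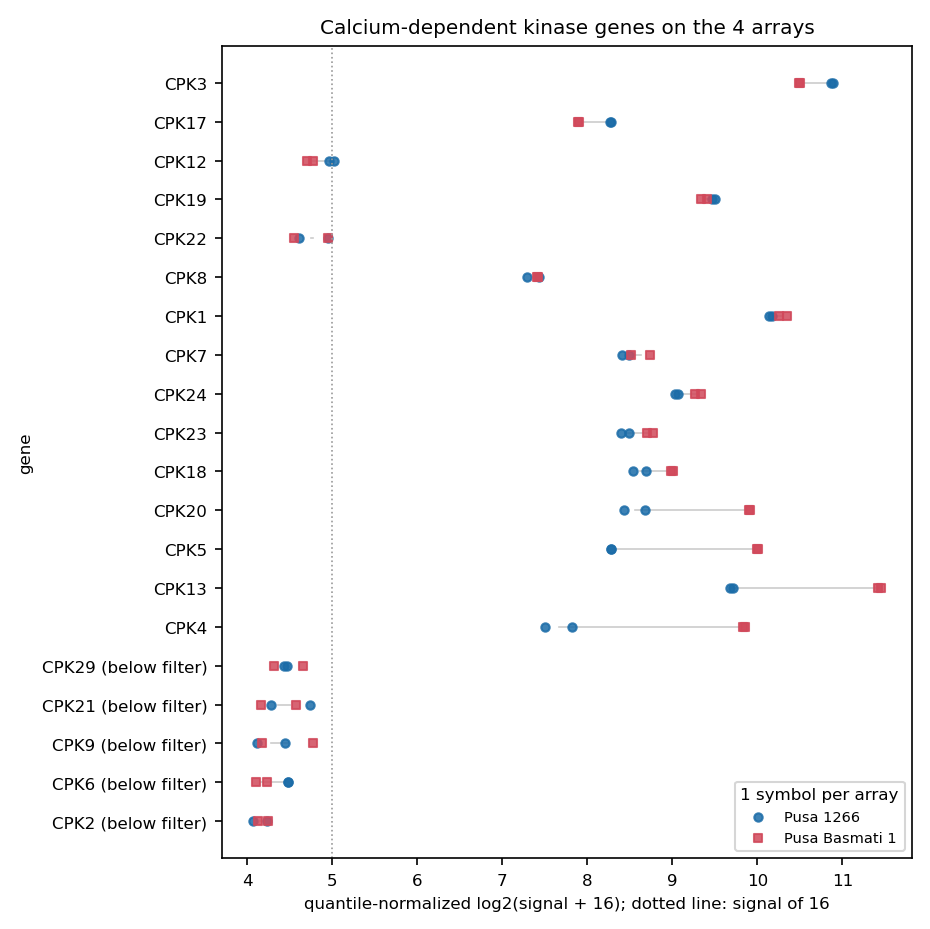
Quantile-normalized log2(signal + 16) of the 20 calcium-dependent kinase genes with a probe set, 1 symbol per array, drawn as for the sensors. CPK4, CPK13, CPK5 and CPK20 lie apart from the others, and the 5 kinases below the filter sit at the dim end in both cultivars.

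Of the remaining kinases CPK23, also named SPK and known from developing rice seeds, fell by 0.29 ± 0.07 (signals of 220 and 273 against 504 and 594), and CPK24, which acts in the cold response of rice, by 0.25 ± 0.06 (367 and 409 against 782 and 841). These were small, and each lost the call when 1 array was left out. CPK23 did not pass without Pusa 1266 replicate 1 or without Pusa Basmati 1 replicate 2, and CPK24 did not without Pusa Basmati 1 replicate 1. Each kept its call in 13 of the 15 alternatives. CPK3 rose by 0.38 ± 0.05 (adjusted p = 0.000298), with 1398 and 1578 against 1705 and 1944, and CPK17, which in rice acts on a sucrose phosphate synthase in the cold, also by 0.38 ± 0.07 (201 and 234 against 283 and 321). Both were dimmer in Pusa 1266 as deposited, at −0.29 and −0.45 with that scaling, and there lay 0.33 and 0.17 above the median of all genes. CPK1 had bright probe signals, of 805 and 927 against 1552 and 1649, and at −0.14 ± 0.06 did not pass (adjusted p = 0.0633). CPK7 (−0.18), CPK8 (−0.05), CPK12 (0.25), CPK19 (0.11) and CPK22 (0.03) did not pass either. CPK12, which in rice favours salt tolerance over blast resistance, had signals of only 11.7 to 14.1.

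The 5 kinases below the filter were CPK2, CPK6, CPK9, CPK21 and CPK29, with signals between 0.7 and 14.1. CPK21, known for salt tolerance, had 2.5 and 8.8 against 2.3 and 9.4, and CPK9, known for drought tolerance, 1.0 and 4.9 against 2.6 and 14.1. With no detection calls in the table, these values say only that the probe sets were dim in both cultivars. Over the 15 tested kinases 2 (13.3%) rose and 7 (46.7%) fell, where all genes gave 34.7% and 26.3%. The kinases had a median log2 difference of −0.18. The median was −0.998 as deposited and −0.76 with median centring, −0.097 with no filter, and −0.097 without Pusa Basmati 1 replicate 1. Signals of different probe sets depend on their probes, so the order of brightness among genes is not an order of transcript levels.

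The rank of a signal within its own array does not depend on any scaling between arrays. Quantile normalization is itself built on these ranks, so the percentiles restate the normalized values and are no separate evidence. CML27 stood at percentile 70.6 and 70.9 of all probe sets in Pusa 1266 and at 96.7 and 96.4 in Pusa Basmati 1. CML31 stood at 82.1 and 82.2 against 96.7 and 96.7, and CPK4 at 80.5 and 83.0 against 95.5 and 95.6. CPK5 was at percentile 86.3 on both Pusa 1266 arrays and at 96.1 and 96.2 on the others. Replicates of a cultivar lay close together in rank for CML27, CML31 and CPK5, and less so for CPK4 in Pusa 1266. CML15 and CPK13 were near the top in both cultivars, with CPK13 at 95.0 and 94.8 against 99.4 and 99.4. CML3 went the other way, from 71.8 and 69.8 in Pusa 1266 to 57.5 and 57.3 in Pusa Basmati 1, as did CML30, from 88.9 and 88.7 to 81.3 and 82.3.

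**Figure D3:**
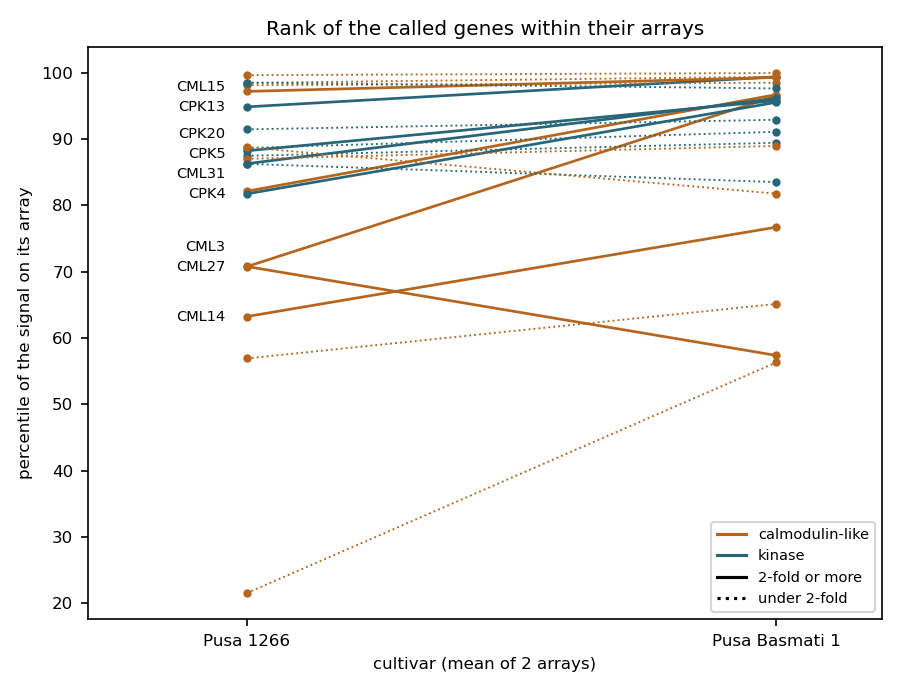
Percentile of each called gene's signal among all probe sets of its array, as the mean of the 2 arrays of each cultivar (solid lines, 2-fold or more after normalization, with names; dotted lines, smaller differences). Of the named genes only CML3 is ranked higher in Pusa 1266, and CML27 rises from percentile 70.8 to 96.5 in Pusa Basmati 1.

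Of the 21 called members 19 kept their sign with all 4 scalings, and CPK3 and CPK17 did not. With the linear signals brought to 1 trimmed mean, 5 of the 37 genes (13.5%) were higher and 15 (40.5%) lower, where all genes gave 34.6% and 27.1%. The deposited scaling put 1 of them (2.70%) higher and 25 (67.6%) lower, beside 4.58% and 66.7% of all genes. Median centring put 2 (5.41%) higher and 24 (64.9%) lower, beside 8.48% and 51.7% of all genes. Among all called probe sets the share higher in Pusa 1266 was 52.8% after quantile normalization, 52.0% with the trimmed mean, 17.5% with median centring and 8.40% as deposited. Relative to the median of all genes 23 of the 37 lay below it after quantile normalization, 23 as deposited and 22 with the trimmed mean. Median centring gives the deposited count by construction. The 8 genes lower by 2-fold or more, and CML3, passed in the same direction in every one of the alternatives that could be run on them (14 for CPK5 and CML3, 15 for the others). With the deposited scaling the 8 ranged from −1.65 for CML15 to −4.61 for CML27, and relative to the median of all genes from −1.03 to −4.00.

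**Figure D4:**
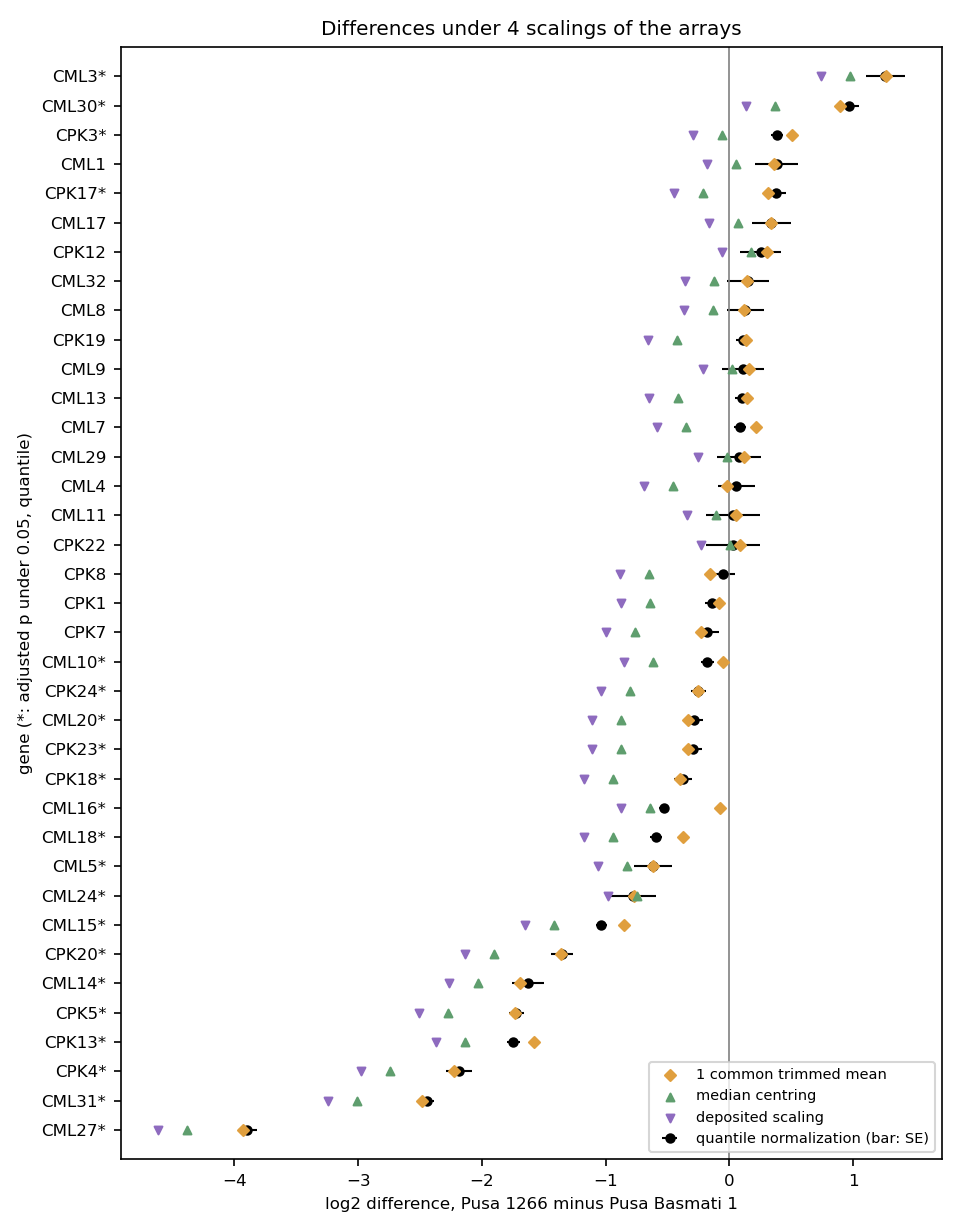
Log2 difference (Pusa 1266 minus Pusa Basmati 1) of the 37 tested genes with 4 scalings of the arrays: quantile normalization (black circles, with the SE), 1 common trimmed mean (diamonds), median centring (upward triangles) and the deposited scaling (downward triangles). The 8 genes from CML27 to CML15 lie below 0 with all 4 scalings and CML3 above 0 with all 4, whereas CPK3 and CPK17 cross 0.

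Other genes of calcium signalling were counted beside them. Of 13 tested genes 3 rose and 6 fell in Pusa 1266, a share called of 69.2% where all genes gave 61.0%. By direction 23.1% were higher and 46.2% lower, where all genes gave 34.7% and 26.3%. As deposited 11 of the 13 (84.6%) were called lower, where all genes gave 66.7%, and the others did not pass. The widest difference was that of ACA7, of a family of calcium pumps that clear calcium from the cytosol, with signals of 27.3 and 32.7 against 639 and 735. It fell 9.36-fold, with a log2 difference of −3.23 ± 0.09 (adjusted p = 9.69e-08), which was −3.64 with a constant of 1 and −2.47 with 64. No other of these calcium genes was called at 2-fold or more. The pump genes ACA5 and ACA10 fell by 0.51 and 0.49, while ACA8 rose by 0.45 and stood at −0.37 with the deposited scaling. The vacuolar exchanger gene CAX1a, whose product loads calcium into the vacuole, fell by 0.95 ± 0.11, and CAX2 (−0.15) and CAX3 (0.11) did not pass.

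Of the calmodulins themselves, the small EF-hand proteins after which the family is named, CAM2 fell by 0.66 ± 0.07, with 819 and 946 against 2030 and 2627. CAM1 (−0.09) and CAM3 (0.10) did not pass. Both were called in opposite directions by other scalings: lower as deposited (−0.62 and −0.55) and higher with the trimmed mean (0.18 and 0.25). The NADPH oxidase gene rbohB, of a family that calcium-dependent kinases phosphorylate, had signals of 250 and 257 against 653 and 744 and fell by 0.60 ± 0.07. CCAMK, the calcium and calmodulin dependent kinase of root symbiosis, rose by 0.43 ± 0.07, and TPC1, a cation channel opened by voltage, by 0.78 ± 0.07. These rises depended on the scaling, since CCAMK stood at −0.39 and TPC1 at 0.00 as deposited. ACA1 and CAX1b were below the filter.

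The members are spread over the 12 chromosomes, and no pair of called members lay within 20 genes of each other in the reference gene order. Pairs that close were CML1 and CPK2, CML2 and CPK25, CML9 and CPK14, and CML28 and CPK29. Of these 8 genes CML1 and CML9 alone were tested, and neither passed, so no such pair could have been called together. Of the 7 members with more than 1 probe set, 2 (CML5 and CPK13) had a further probe set called in the same direction, and no member had probe sets called in opposite directions. The probes were designed for the array and not for these cultivars, and whether cultivar differences in the probed sequence contribute was not tested.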

How the data were processed

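Total RNA (8 ug) of panicle primordia was labelled and hybridized to Affymetrix arrays, per the labels' protocols. The authors deposited linear signal intensities of 57381 probe sets on each array. GCOS 1.2 is named in the submitters' processing notes, and how it treated background and scaling is not given in the sources used here.

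Members and lists were chosen with earlier results of these data known. The 123 control probe sets were left out. Log2(signal + 16) was quantile normalized, and the 30029 probe sets above the array median on at least 2 of 4 arrays were fitted by cultivar with lmFit and eBayes (trend) in limma 3.58.1 under R 4.3.3, with Benjamini-Hochberg adjustment over all of them and a threshold of 0.05. The fit was tested on simulated data with 200 of 30029 probe sets changed, far fewer than were called in these data. Of the 200, 120 were called with the right sign. Among those changed 4-fold 81 of 100 were called, and 2 unchanged probe sets were called falsely. With 2 arrays against 2 the smallest two-sided p of an exact permutation test is 0.333, and calls rest on the variance limma shares across probe sets. Arrays give no counts, and their number limits the precision. The table holds no column of another sample.

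Probe sets were joined to genes by the annotation's gene identifiers (22436 to 1 gene, 95 to several, 34727 to none), and all 17905 genes matched the RefSeq table of assembly ASM3414082v1, used for names, chromosomes and gene order. The rule for description with signals took members called at 2-fold or more, the 3 brightest of each class, and any with opposite probe sets. Some other members were described with signals outside this rule, and the rest are listed. CAMTA, CNGC, OSCA and annexin symbols and TAW1 matched no gene, GLR3.1 stands for more than 1 gene and was left out with the CRK symbols, and no sequence was used. Replicate numbers were not treated as pairs, since replicate differences in the 2 cultivars correlated with r = 0.0181 across probe sets. Tables were made with pandas 2.3.3 and numpy 2.4.6 (Python 3.11.15) and plots with matplotlib 3.10.9. The alternatives covered scaling, the added constant, the filter, the trend, the replicate block, each array left out and the choice of probe set.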

Additional observations from a re-analysis of the deposited data

How the results depend on the processing

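Of the probe sets 8472 were higher and 7574 lower after quantile normalization, 1646 and 17956 with the deposited scaling, and 2906 and 13660 with median centring. Among the calmodulin-like genes the count of 2 higher was 1 with the deposited scaling and 1 with the filter at the 75th percentile. Their count of 10 lower became 13 as deposited, 13 after median centring and 8 with the trimmed mean, so it moved with the scaling too. It was 8 with no filter, 8 with the filter at the 75th percentile and 8 without the trend. Kinases lower were 5 without the probe sets that match several transcripts, and 8 with the filter at the 75th percentile. The former setting leaves CPK5 out and lets the dim probe set of CPK18, which did not pass, stand for that gene. Among the kinases the 2 higher and 7 lower genes became 0 and 12 with the deposited scaling and 0 and 11 with median centring. All tested genes gave 4.58% higher and 66.7% lower as deposited, 8.48% and 51.7% with median centring, and 34.6% and 27.1% with the trimmed mean. Shares of all genes were not computed for the other alternatives, so member counts there have no such share beside them. In limma the kinases higher at an unadjusted p under 0.05 were also 0 with both scalings. Leaving out each array in turn gave 2 to 3 sensors higher and 7 to 9 lower, 2 kinases higher and 6 to 8 lower, and 6828 to 7562 probe sets higher and 5904 to 7058 lower. A replicate block left the calls as they were, with 10 sensors and 7 kinases lower and 2 of each higher, and 8656 probe sets higher. The added constants of 1 and 64 also left all 37 calls as they were.

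The sign of the log2 difference turned in 15 of the 37 members as deposited, in 10 with median centring and in 1 with the trimmed mean. CPK3 and CPK17 were the called ones among them. For genes called either before or after the turn, the values as deposited and after median centring, in that order, were −0.69 and −0.45 for CML4, −0.59 and −0.35 for CML7, −0.65 and −0.41 for CML13, −0.29 and −0.057 for CPK3, −0.45 and −0.21 for CPK17, −0.66 and −0.42 for CPK19, −0.39 and −0.15 for CCAMK, −0.37 and −0.14 for ACA8, and −0.71 and −0.48 for CAX3. CAM3 was −0.55 with the deposited scaling and CAM1 0.18 with the trimmed mean. With the mean of all probe sets of a gene CML10 was 0.067 and ACA8 −0.13, and CPK18 was 0.013 without the probe sets that match several transcripts. The median of the calmodulin-like genes, 0.04, was −0.67 with the deposited scaling, −0.43 with median centring, −0.53 with the stricter filter, and between −0.084 and 0.018 with 1 array left out, below 0 without Pusa 1266 replicate 2 or without Pusa Basmati 1 replicate 1. In these the scaling or the set of genes or arrays was what changed, and the cause of each change was not tested further. Signals of 16 or less in a cultivar limit the size of 2 called genes, CML5 and CML24. Sizes also moved with the constant where signals lay just above 16. CML14 was −2.11 with a constant of 1 and −0.98 with 64, and CML3 was 1.89 and 0.64.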
